A study of Mus musculus with 21 samples.

Results

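The 10 genes described here encode the chaperonins of the mouse cell. They are Tcp1, Cct2, Cct3, Cct4, Cct5, Cct6a, Cct7 and Cct8, the 8 subunits of the cytosolic chaperonin CCT (also called TRiC), and Hspd1 and Hspe1, the mitochondrial chaperonin HSP60 and its co-chaperonin HSP10. They were chosen by symbol from the 24421 genes of the expression tables, and each symbol had 1 row. All 10 passed the filter on low counts that left 12786 genes for testing.

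Poly(A) RNA was sequenced from primary B cell precursors that were grown from bone marrow of 53BP1-/- C57BL/6 mice. All 6 libraries lack 53BP1, a DNA double-strand break repair factor, also those of the control. The cells were cultured with 10 ng/ml IL-7, the cytokine that sustains B cell precursors, and were transduced on days 2 and 3 of culture with the retroviral vector MIGR1. The vector was empty (EV), carried human BCR-ABL1 p210, the fusion tyrosine kinase of Philadelphia chromosome-positive leukemia, or carried mouse C-MYC, a transcription factor of cell growth. Cells were harvested 7 to 9 days after transduction, and each condition has 2 libraries. Nothing in the labels says that the 2 libraries came from separate mice or cultures, and the study's methods name duplicate experiments, so the p-values measure the spread between these libraries. The age of the mice and the share of transduced cells per library are not given in the sources used here.

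A chaperonin is a barrel of stacked rings that encloses an unfolded protein and releases it after ATP hydrolysis. CCT is built from 8 different subunits, each present in every ring, and folds actin, tubulin and other proteins with complex topologies, among them cell cycle regulators. HSP60 and HSP10 fold proteins that were imported into the mitochondrial matrix, and HSP10 forms the lid of the HSP60 barrel.

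The libraries held between 20687092 and 24095955 counts. Myc checked the labels: it was at 181 and 137 CPM (counts relative to the TMM-scaled total of the library) in EV, 343 and 348 with BCR-ABL1, and 1743 and 1233 in C-MYC, whose vector carries mouse C-MYC and is counted with the gene. Markers of B cell precursors were abundant in every library, with a summed level of 10 markers between 5432 and 6199 CPM in EV and BCR-ABL1 and of 3767 and 3131 CPM in C-MYC. The EV libraries also held RNA of other cell types: 10 myeloid markers summed to 1705 and 1260 CPM in EV, 156 and 169 with BCR-ABL1, and 198 and 339 in C-MYC. For 5 T and NK cell markers the sums were 112 and 81.2 CPM in EV and at most 5.65 CPM elsewhere, and for 5 stromal markers they were 102 and 156 CPM in EV and at most 5.98 CPM elsewhere. The stromal marker Lum and the erythroid markers Hba-a1 and Hbb-b1 were at 0 counts in all libraries. The part of these other cells in the comparisons with EV was not tested. Between C-MYC and BCR-ABL1, 7 of the 10 B cell precursor markers fell and 2 of the 10 myeloid markers rose (edgeR adjusted p below 0.05). Of all genes tested, 11.9% fell and 11.5% rose in that comparison. Against EV, 3 of the 10 B cell precursor markers fell in BCR-ABL1 and 9 in C-MYC, and 0 rose. Of all genes tested, 12% and 24.5% fell in these comparisons. The part of these differences in the comparisons was not tested either. In bulk RNA, fewer cells of a type and less RNA per cell cannot be told apart.

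The members lie on separate chromosomes except Hspd1 and Hspe1, which are neighbours. Hspd1 (chr1:55077835-55088243, minus strand) and Hspe1 (chr1:55088132-55091307, plus strand; GENCODE M21 on GRCm38) are arranged head to head, with starts 111 bp apart and first exons that overlap by 112 bp. Part of the sequence around these starts lies in promoter windows of both mitochondrial members. RefSeq promoter windows (GRCm38.p6, 250 bases before to 50 after a start) were found for 9 of the 10 members, in 12 windows, and not for Cct4. The motifs searched on both strands were the E-box CACGTG, to which MYC and related factors can bind; the heat shock inverted pair, GAANNTTC or TTCNNGAA, the core of heat shock factor sites; and the CCAAT box, CCAAT or ATTGG. Capitals mark the match in the following sequences.
Hspd1, E-box, chr1:55088306-55088335, minus strand: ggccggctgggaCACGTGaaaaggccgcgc
Hspe1, heat shock pairs, chr1:55088053-55088082, plus strand: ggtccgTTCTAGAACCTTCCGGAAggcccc
Cct2, heat shock pair, chr10:117063399-117063428, minus strand: ccccaagtgaaGAAGTTTCtagcaggacct
Cct5, heat shock pair, chr15:31601862-31601891, minus strand: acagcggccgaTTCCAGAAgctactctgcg
Cct7, CCAAT box, chr6:85451398-85451426, plus strand: aaccgggcgctgATTGGccaaaactctta

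The E-box was found in 1 of the 12 windows, that at the outer start of Hspd1, where it ends 74 bases before the start and lies within an annotated exon of Hspe1. Of all 32851 promoter windows of this length, 7.15% held an E-box, and of the 9714 tested genes with a window, 11.7% had one. Before the start of Hspe1, 3 heat shock pairs overlap in a run of 18 bases that lies in an annotated exon of Hspd1. This run ends 71 bases before the start of Hspe1 and is also covered by the window at the inner start of Hspd1. Heat shock pairs were present in windows of 5 members, Cct2, Cct5, Cct6a, Hspd1 and Hspe1, and in 5 of the 12 windows, against 15.1% of all windows and 14.1% of tested genes. In this count the same 18 bases enter for both Hspd1 and Hspe1. The match of Cct6a lies after its start, and that of Cct5 lies in an annotated exon of Fam173b. For the CCAAT box the numbers were 5 members, Tcp1, Cct3, Cct6a, Cct7 and Hspd1, and 5 of the 12 windows, against 37.4% of all windows and 42.9% of tested genes. In Cct7 the box occurs 3 times, the last 90 bases before the start. A match describes letters in the window and not a bound site.

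To ask how the oncogenes compare in the expression of the folding machinery, the level of each member was followed over the 6 libraries. All 10 genes were lowest in both EV libraries, intermediate in both BCR-ABL1 libraries and highest in both C-MYC libraries, with no overlap between conditions. Of all genes tested, 13.3% were ordered in this way. Taken pair by pair, 29.2% had both BCR-ABL1 libraries above both EV libraries, 31.5% had C-MYC above EV and 34.5% had C-MYC above BCR-ABL1. Together the 10 genes took 0.326% and 0.375% of the counts in EV, 0.431% and 0.471% with BCR-ABL1, and 0.684% and 0.761% in C-MYC. Since CPM is relative to the total of a library, it shows the share of a gene in the RNA and not the amount per cell.

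**Figure D1:**
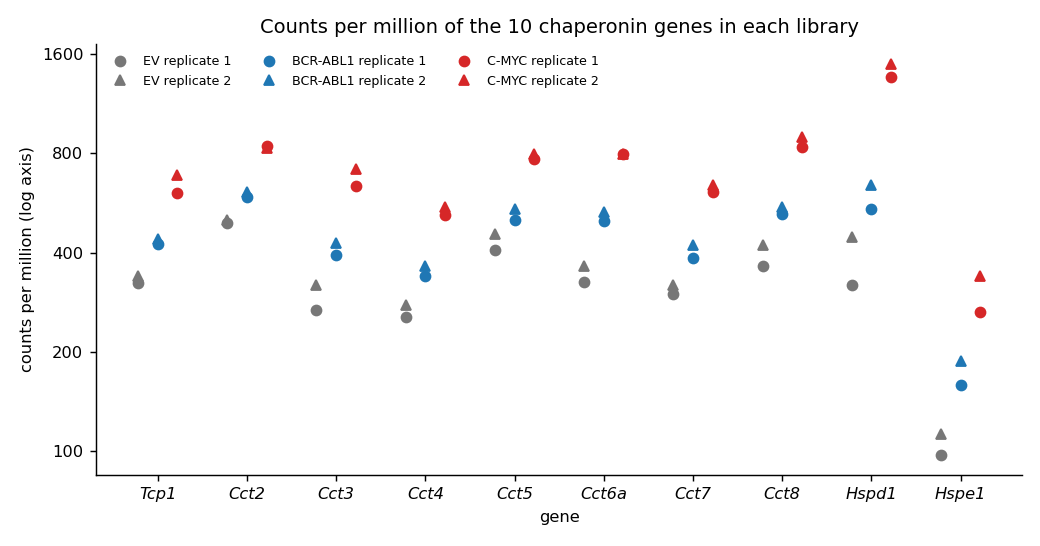
Each point is 1 library; the x axis gives the gene and the y axis CPM on a log scale, with circles for replicate 1 and triangles for replicate 2. For every gene the 2 C-MYC points lie above the 2 BCR-ABL1 points, which lie above the 2 EV points; Hspd1 reaches 1364 and 1498 CPM in C-MYC.

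Between BCR-ABL1 and EV, 8 of the 10 members rose (edgeR quasi-likelihood test, Benjamini-Hochberg adjusted p below 0.05), and 0 fell, against 5.08% of all genes tested that rose and 12% that fell. Their median log2 fold change was 0.43, beside 0.00 for all genes tested. Cct6a, the zeta subunit, had the smallest adjusted p: it was at 325 and 364 CPM in EV and 498 and 531 in BCR-ABL1, a log2 fold change of 0.58 ± 0.10 (SE; edgeR adjusted p = 0.00753). The BCR-ABL1 values of Cct6a lie clear of those of EV and apart from each other by less than this difference.

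The subunits Cct3 (gamma), Cct8 (theta), Cct4 (delta), Cct7 (eta) and Tcp1 (alpha) also rose, with log2 fold changes between 0.38 and 0.49 and edgeR adjusted p between 0.0247 and 0.0382. Cct2, the beta subunit, was at 492 and 502 CPM in EV and 592 and 609 in BCR-ABL1, a log2 fold change of 0.27 ± 0.09 that did not pass the test (edgeR adjusted p = 0.0709). Cct5, the epsilon subunit, was at 406 and 457 CPM in EV and 502 and 540 in BCR-ABL1, a log2 fold change of 0.27 ± 0.10 that did not pass either (edgeR adjusted p = 0.109). Both Cct2 and Cct5 were higher in each BCR-ABL1 library than in each EV library, and their 95% intervals, 0.07 to 0.47 and 0.04 to 0.51, exclude 0 before adjustment.

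The mitochondrial pair rose more than any CCT subunit in BCR-ABL1 by the point estimate. Hspe1 was at 97.1 and 113 CPM in EV and at 158 and 187 in BCR-ABL1, a log2 fold change of 0.72 ± 0.16 (edgeR adjusted p = 0.0183). Hspd1 was at 319 and 445 CPM in EV and at 541 and 643 in BCR-ABL1, a log2 fold change of 0.63 ± 0.17 (edgeR adjusted p = 0.0373). The EV libraries of Hspd1 differed from each other by more than those of the other members, and the 95% interval of Hspd1, 0.25 to 1.02, includes the values of all CCT subunits. The interval of Hspe1, 0.36 to 1.08, includes those of the subunits other than Cct2 and Cct5.

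The number of members called between BCR-ABL1 and EV depended on single libraries. It was 2 without EV replicate 1, 1 without BCR-ABL1 replicate 1 and 0 without BCR-ABL1 replicate 2, where 7 had an unadjusted p below 0.05 in edgeR. Over all genes, 650 rose with all libraries, and 901, 128 and 118 rose in these 3 fits, so calls fell for all genes too without a BCR-ABL1 library. It was 3 with upper quartile scaling, 9 with DESeq2 and 1 with limma on log2(FPKM + 1), Cct6a. All 10 fold changes were positive in each of these fits.

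In C-MYC compared with EV, all 10 members rose, against 18.6% of all genes tested that rose and 24.5% that fell. Their median log2 fold change was 1.08, beside -0.08 for all genes tested, and the edgeR adjusted p-values lay between 0.000285 and 0.000701. Hspd1 changed most: from 319 and 445 CPM in EV it reached 1364 and 1498 CPM in C-MYC, a 3.75-fold rise (95% interval 2.85 to 4.93). Of all genes tested, 0.860% had a larger log2 fold change than Hspd1.

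Hspe1 rose 2.87-fold (95% interval 2.23 to 3.70), from 97.1 and 113 CPM to 264 and 339 CPM. The CCT subunits rose between 1.69-fold, for Cct2, and 2.32-fold, for Cct6a. Cct6a was at 798 and 797 CPM in the C-MYC libraries, and Cct3 was next with a 2.31-fold rise to 636 and 717 CPM. Cct2 was at 844 and 832 CPM in C-MYC, the smallest fold change among the members.

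In the direct comparison of the 2 oncogenes the EV libraries enter through the scaling, the filter and the estimate of the spread. All 10 members were higher in C-MYC than in BCR-ABL1, against 11.5% of all genes tested that were higher and 11.9% that were lower, with edgeR adjusted p between 0.00286 and 0.0100. Their median log2 fold change was 0.63, beside 0.00 for all genes tested. The CCT subunits lay within a narrow range, from 0.48 ± 0.09 for Cct2 to 0.72 ± 0.12 for Cct3, a spread smaller than the width of their 95% intervals. Cct4, for example, was at 338 and 365 CPM in BCR-ABL1 and at 519 and 550 CPM in C-MYC.

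Hspd1 had the largest difference of the members, with a log2 fold change of 1.27 ± 0.17 between C-MYC and BCR-ABL1. Its 95% interval, 0.88 to 1.66, lies above the point estimate of every CCT subunit. Hspe1, at 0.80 ± 0.15, did not: its interval of 0.44 to 1.16 includes all CCT subunits. All 10 calls were also made by DESeq2 and by limma on log2(FPKM + 1). Without BCR-ABL1 replicate 1, however, only Hspd1 was called, with all 10 at an unadjusted p below 0.05 and all 10 higher in C-MYC. Over all genes, 1468 were higher and 1523 lower with all libraries, and 176 and 442 without this one.

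**Figure D2:**
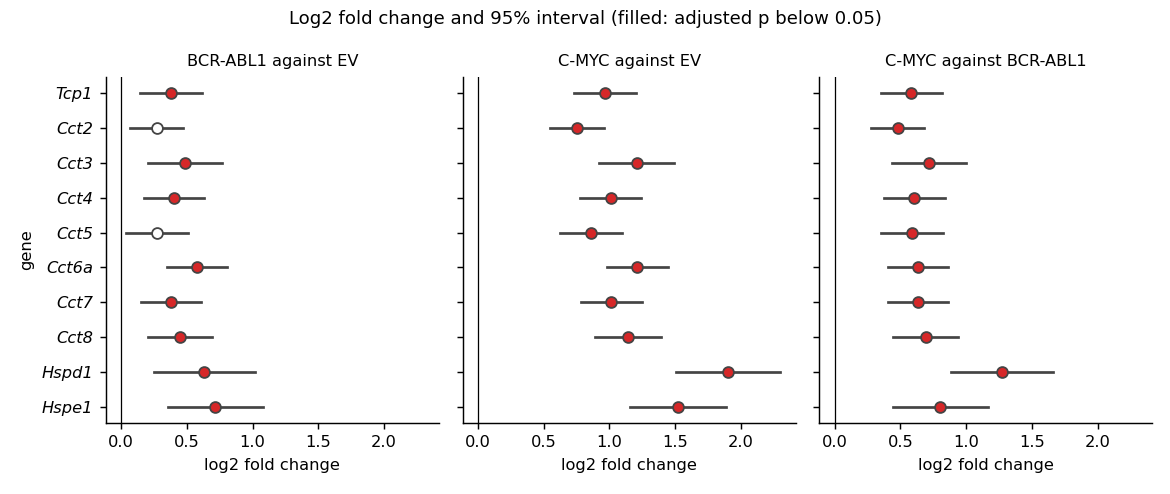
Log2 fold change (x axis) of each gene (y axis) in the 3 comparisons, with bars for the 95% interval of the edgeR fit on 6 libraries; filled points have an adjusted p below 0.05. Open points are Cct2 and Cct5 between BCR-ABL1 and EV, and Hspd1 lies to the right of all others in both comparisons of C-MYC.

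Because a CCT ring holds 1 copy of each subunit, the balance among the 8 transcripts was described next. Counts were divided by the length of the longest curated RefSeq transcript of each gene, a length chosen after seeing the data. In EV replicate 1, the share of a subunit in the CCT sum ran from 9.59% for Cct7 to 18.7% for Cct2, a ratio of the highest to the lowest of 1.95. This ratio was 1.86 in the other EV library, 1.82 and 1.71 with BCR-ABL1, and 1.67 and 1.61 in C-MYC. Every library of C-MYC thus had a more even set of CCT transcripts than every library of EV. With the deposited FPKM the ratio was 2.04 and 1.95 in EV, 1.91 and 1.79 with BCR-ABL1, and 1.71 and 1.71 in C-MYC, in the same order. The size of the ratio depends on the length used. Per kilobase of annotated exon, which includes retained introns, it was 4.58 and 4.16 (EV), 4.08 and 3.84 (both BCR-ABL1 libraries), then 3.68 and 3.43 (C-MYC).

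The share of Cct2 was 18.7% and 17.4% in EV, 16.8% and 16.3% with BCR-ABL1, and 15.6% and 14.6% in C-MYC. Conversely, that of Cct3 was 10.7% and 11.6% in EV and 12.4% and 13.3% in C-MYC, with 11.8% and 12.1% in BCR-ABL1. The share of Cct6a was 11.7% and 12.0% in EV, 13.5% in both BCR-ABL1 libraries, and 14.1% and 13.3% in C-MYC, so both oncogenes lie above EV and overlap each other. Cct4 kept to between 10.1% and 10.3% in all 6 libraries. With 2 libraries against 2, an exact permutation test cannot give a p below 0.333, so these differences in share were not tested.

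The level of Hspd1 relative to the CCT subunits was higher in C-MYC. Its log2 CPM minus the mean log2 CPM of the 8 CCT genes was -0.07 and 0.27 in EV, 0.27 and 0.42 with BCR-ABL1 and then 0.98 and 1.03 with C-MYC. The C-MYC values lie above the other 4, whereas those of BCR-ABL1 and EV overlap. For Hspe1 the same difference was -1.78 and -1.70 in EV, -1.51 and -1.36 with BCR-ABL1, and -1.39 and -1.11 in C-MYC, so both oncogenes lie above EV but overlap each other.

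The ratio of the 2 mitochondrial genes was described as well. Counts of Hspd1 over those of Hspe1 were 3.28 and 3.94 in EV, 3.42 and 3.44 with BCR-ABL1 and then 5.16 and 4.42 with C-MYC. The ratio was thus highest in both C-MYC libraries, whereas both BCR-ABL1 values lay between those of EV. With 2 libraries a condition, this difference was not tested.

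**Figure D3:**
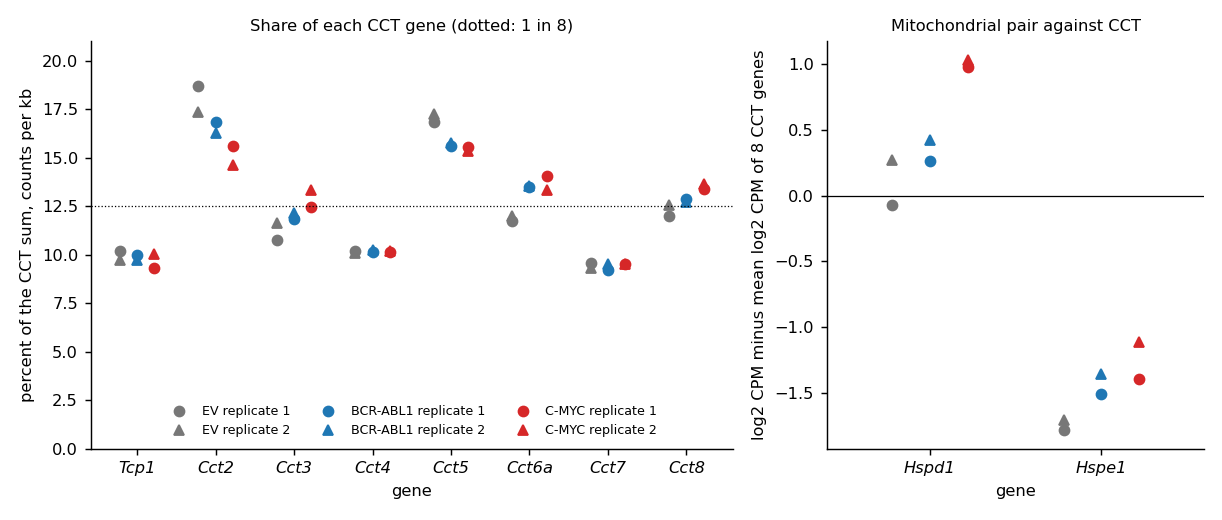
Left, share of each CCT gene in the sum of the 8 (y axis, percent, counts per kilobase of RefSeq transcript) by gene (x axis), with 1 point a library and a dotted line at equal shares; Cct2 falls from 18.7% and 17.4% in EV to 15.6% and 14.6% in C-MYC. Right, log2 CPM of Hspd1 and Hspe1 minus the mean log2 CPM of the 8 CCT genes; Hspd1 is at 0.98 and 1.03 in C-MYC.

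Levels of different genes were compared per length. By CPM per kilobase of RefSeq transcript, Hspd1 and Hspe1 were alike in EV, at 157 ± 36.7 and 137 ± 14.6 (SD, n = 2), and in BCR-ABL1, at 243 ± 29.7 and 225 ± 26.5. In C-MYC, Hspd1 was at 588 ± 39.0 and Hspe1 at 393 ± 68.9, and these libraries did not overlap. On this scale the order of the CCT genes in EV was Cct2, at 240 ± 3.53, then Cct5, at 228 ± 19.0. Cct8, Cct6a, Cct3, Cct4, Tcp1 and Cct7 followed, from 164 ± 16.5 down to 126 ± 6.03. The libraries of neighbours in this order overlap, except that Cct5, at 214 and 241, lies above Cct8, at 153 and 176. In C-MYC, Cct5 and Cct2 were at 413 ± 11.1 and 405 ± 4.32, a difference within the spread, and Cct7 and Tcp1 were lowest at 255 ± 9.79 and 259 ± 22.5.

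The deposited FPKM placed the mitochondrial pair very differently. Mean FPKM was 511 ± 125 for Hspd1 and 7.73 ± 0.911 for Hspe1 in EV, 753 ± 93.0 and 12.1 ± 1.42 with BCR-ABL1, and 1757 ± 162 and 20.5 ± 4.14 in C-MYC. FPKM of Hspd1 over that of Hspe1 was between 59.6 and 93.4 in the 6 libraries, and the same ratio of counts per kilobase was between 1.04 and 1.63. Relative to the median over 9894 genes, the FPKM of Hspe1 was 18.6-fold lower, and that of Hspd1 3.07-fold higher, than its counts per kilobase. A gap of over 4-fold in either direction was seen in 9.15% of these genes. Of the CCT genes, Tcp1 was 1.47-fold higher on the FPKM scale and the others were within 0.935 and 1.02 of their counts per kilobase. How transcripts were assigned to the overlapping first exons of Hspd1 and Hspe1 was not tested.

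**Figure D4:**
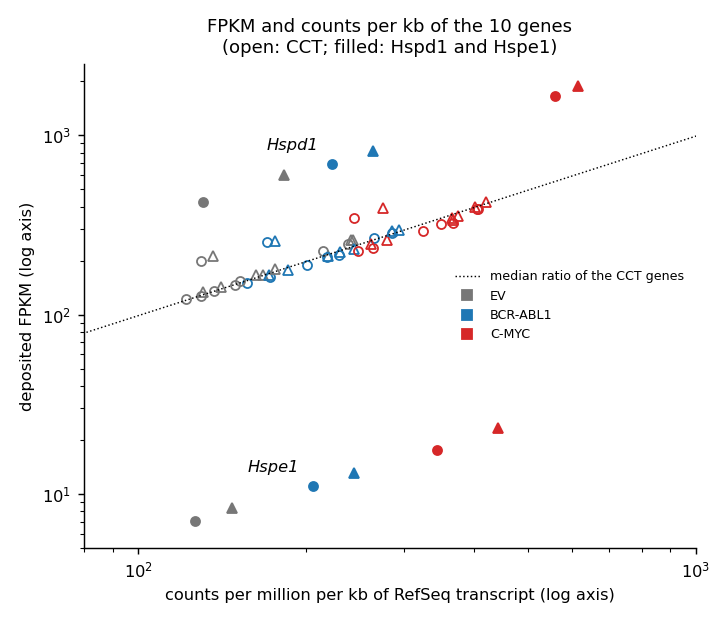
Deposited FPKM (y axis, log) against CPM per kilobase of RefSeq transcript (x axis, log), with 1 point for each gene and library, open for CCT and filled for Hspd1 and Hspe1; the dotted line is the median ratio of the CCT genes. Hspd1 lies above the line in all 6 libraries and Hspe1 far below it.

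Several members overlap or adjoin another gene, and the strand setting of the counting is not given in the sources used here. Exons of Psph, a serine synthesis enzyme, overlap those of Cct6a by 452 bp on the other strand. Psph was at 23.6 and 27.4 CPM in EV and 44.2 and 44.1 in C-MYC, and rose (log2 fold change 0.79 ± 0.14, edgeR adjusted p = 0.00306). Mrpl18, a mitochondrial ribosomal protein gene that overlaps Tcp1 by 141 bp, rose from 82.3 and 90.0 CPM in EV to 122 and 134 in C-MYC. Usp16 and Pradc1, which overlap Cct8 and Cct7 by 192 and 214 bp, did not pass the test in any comparison, and neither did Fam173b, which starts 48 bp from Cct5 on the other strand. Tsacc, which starts 117 bp from Cct3, was at 0.9 and 1.4 CPM in EV and 3.9 and 3.5 in C-MYC and rose (edgeR adjusted p = 0.00617). RefSeq lists 7 pseudogenes of Hspe1, 5 of Hspd1 and 1 each of Tcp1 and Cct3, none of which has a row in the tables. Whether reads of these copies were counted with the members is not known, and the values of these 4 genes are uncertain to that extent.

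Partner genes were then examined in 10 lists of 90 genes, with the shares of all genes tested by direction as background for each list. Between BCR-ABL1 and EV 5.08% rose and 12% fell, between C-MYC and EV 18.6% and 24.5%, and between C-MYC and BCR-ABL1 11.5% and 11.9%. Of the 90 genes, 88 passed the filter. Of these, 11 were called between BCR-ABL1 and EV, 51 between C-MYC and EV, and 32 between C-MYC and BCR-ABL1, against 17%, 43.1% and 23.4% of all genes tested that were called in either direction. For BCR-ABL1 against EV the count was 17 without EV replicate 2, 2 without either BCR-ABL1 library, and 6 and 5 without C-MYC replicates 1 and 2. For C-MYC against BCR-ABL1 it was 2 and 14 without BCR-ABL1 replicates 1 and 2, and 15 and 9 without C-MYC replicates 1 and 2.

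Co-chaperones that deliver substrates to CCT or assist it were taken as a list of 9 genes. Of these, 0 were called between BCR-ABL1 and EV, 4 rose in C-MYC against EV and 2 rose in C-MYC against BCR-ABL1. The median log2 fold change of the list was 0.14, 0.30 and 0.12, beside 0.39, 1.01 and 0.62 for the 8 CCT genes. The prefoldin subunit Pfdn2 was at 40.9 and 49.1 CPM in EV, 42.8 and 61.7 with BCR-ABL1, and 76.1 and 88.6 in C-MYC, a log2 fold change of 0.87 ± 0.19 against EV (edgeR adjusted p = 0.00914). Pfdn5, which also binds MYC protein, was at 86.6 and 90.8 CPM in EV and 75.7 and 69.0 in C-MYC, and did not pass the test (edgeR adjusted p = 0.0661).

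The main substrates of CCT moved in both directions. Of 13 actin and tubulin genes, 2 rose and 1 fell in BCR-ABL1 against EV, 7 rose and 2 fell in C-MYC against EV, and 3 rose and 1 fell in C-MYC against BCR-ABL1. Tubb3, a beta-tubulin best known from neurons, had the largest rise: it was at 18.4 and 28.7 CPM in EV, 82.5 and 101 with BCR-ABL1, and 247 and 204 in C-MYC. Tuba4a was at 130 and 124 CPM in EV, 224 and 220 with BCR-ABL1, and 303 and 244 in C-MYC, and rose against EV with both oncogenes. Tuba1b rose from 726 and 744 CPM in EV to 1026 and 1156 in C-MYC (log2 fold change 0.57 ± 0.10, edgeR adjusted p = 0.00300). Tuba1a fell from 69.9 and 79.1 CPM in EV to 36.8 and 24.2 in C-MYC (log2 fold change -1.29 ± 0.21, edgeR adjusted p = 0.00237). Actb, beta-actin, fell from 3749 and 4162 CPM in EV to 3280 and 2502 in C-MYC (edgeR adjusted p = 0.0276). Tubb5, a beta-tubulin, was at 2597 and 2344 CPM in EV and 3301 and 2534 in C-MYC and did not pass the test (edgeR adjusted p = 0.188).

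Of 8 other CCT substrates, 2 rose in C-MYC against EV, Cdc20, an activator of the anaphase-promoting complex, and Ccne1, cyclin E1, and 1 fell, Vhl, the recognition subunit of a ubiquitin ligase. Cdc20 was at 174 and 191 CPM in EV and at 277 and 266 in C-MYC, and was the only one called between C-MYC and BCR-ABL1. Of 5 tubulin cofactors, which act on tubulin after CCT, 1 rose in C-MYC against EV, Tbca. Among the chaperonin-like genes outside CCT, the testis subunit Cct6b was at or under 0.334 CPM, Cct8l1 had 0 counts in all libraries, and Mkks, Bbs10 and Bbs12, parts of the BBS chaperonin complex of the cilium, were between 1.46 and 14.6 CPM. Of the latter 3, 0 were called by edgeR in any comparison, with 0 at an unadjusted p below 0.05 and 0 called by DESeq2.

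Proteins reach HSP60 through the import machinery. Of 13 genes of protein import, 4 rose in BCR-ABL1 against EV, 11 in C-MYC against EV and 9 in C-MYC against BCR-ABL1, and 0 fell. Tomm40, the channel of the outer membrane, was at 99.5 and 101 CPM in EV, 121 and 133 with BCR-ABL1, and 242 and 201 in C-MYC. Timm23, the channel of the inner membrane, was at 82.4 and 81.0, 105 and 116, and 167 and 151 CPM. Timm17b and Pam16 were the only import genes that did not pass the test in C-MYC against EV, and Timm17a, the other form of that subunit, rose (log2 fold change 0.87 ± 0.11).

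Of 7 genes of the mitochondrial HSP70 system and TRAP1, 2 rose in BCR-ABL1 against EV and 4 in each comparison of C-MYC. Hspa9, the HSP70 that pulls proteins into the matrix and hands them to HSP60, was at 448 and 497 CPM in EV, 638 and 648 with BCR-ABL1, and 1107 and 1099 in C-MYC. Trap1, the mitochondrial HSP90, was at 91.6 and 113, 137 and 148, and 221 and 233 CPM. Both genes were ordered as the chaperonins were, and Grpel1 and Dnaja3, co-chaperones of Hspa9, rose in both comparisons of C-MYC, with log2 fold changes of 0.22 and -0.08 between BCR-ABL1 and EV that did not pass.

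Of 7 mitochondrial proteases, 0 were called between BCR-ABL1 and EV, 5 rose in C-MYC against EV and 4 rose in C-MYC against BCR-ABL1. Htra2 changed most, from 23.5 and 30.7 CPM in EV and 31.1 and 32.8 in BCR-ABL1 to 71.8 and 80.6 in C-MYC. Lonp1, the main matrix protease, was at 101 and 119 CPM in EV, 115 and 125 with BCR-ABL1, and 202 and 201 in C-MYC. Yme1l1 and Spg7 did not pass the test in any comparison.

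Cytosolic HSP70, HSP90 and their co-chaperones were compared since they share the cytosol with CCT. Of 13 genes, 1 rose and 1 fell in BCR-ABL1 against EV, and 10 rose in C-MYC against EV and 8 in C-MYC against BCR-ABL1. Hsph1 had the largest rise of the list in C-MYC against EV, from 45.3 and 98.8 CPM to 197 and 241 (edgeR adjusted p = 0.00677). In the same comparison Hsp90aa1 rose from 520 and 694 CPM to 1381 and 1675 (edgeR adjusted p = 0.000763). Hsp90ab1, a constitutive HSP90, was the gene that rose in BCR-ABL1: it was at 3196 and 3593 CPM in EV, 4694 and 4720 with BCR-ABL1 and at 7125 and 7004 with C-MYC. The stress-induced Hspa1b, which fell in BCR-ABL1 against EV, was at 5.0 and 5.2 CPM in EV, 2.6 and 2.8 with BCR-ABL1, and 4.0 and 3.6 in C-MYC. Hspa1a was at or under 1.46 CPM, and Dnajb1, another gene of the heat shock response, was between 63.8 and 75.5 CPM in all libraries and did not pass the test in any comparison.

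Chaperones of the endoplasmic reticulum fold proteins outside the compartments of CCT and HSP60. Of 10 such genes, 0 were called between BCR-ABL1 and EV, 4 rose in C-MYC against EV, and 0 were called between C-MYC and BCR-ABL1. Hspa5, the HSP70 of this compartment known as BiP, was at 621 and 741 CPM in EV, 617 and 775 with BCR-ABL1 and at 636 and 857 with C-MYC. The replicates of Hspa5 differed by more than the conditions. Canx, calnexin, was among the 4 that rose, from 563 and 668 CPM in EV to 903 and 1037 in C-MYC.

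Where a list had 0 calls by edgeR, other counts were as follows. For BCR-ABL1 against EV at an unadjusted p below 0.05, edgeR gave 1 of 9 CCT co-chaperones, 0 of 8 other substrates, 1 of 5 tubulin cofactors, 1 of 7 proteases and 2 of 10 chaperones of the endoplasmic reticulum. DESeq2 called 1 gene of the last list and 0 of the others, and limma on log2(FPKM + 1) called 0. For C-MYC against BCR-ABL1, edgeR gave 0 of the tubulin cofactors and 1 chaperone of the endoplasmic reticulum at an unadjusted p below 0.05, and DESeq2 and limma called 0.

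**Figure D5:**
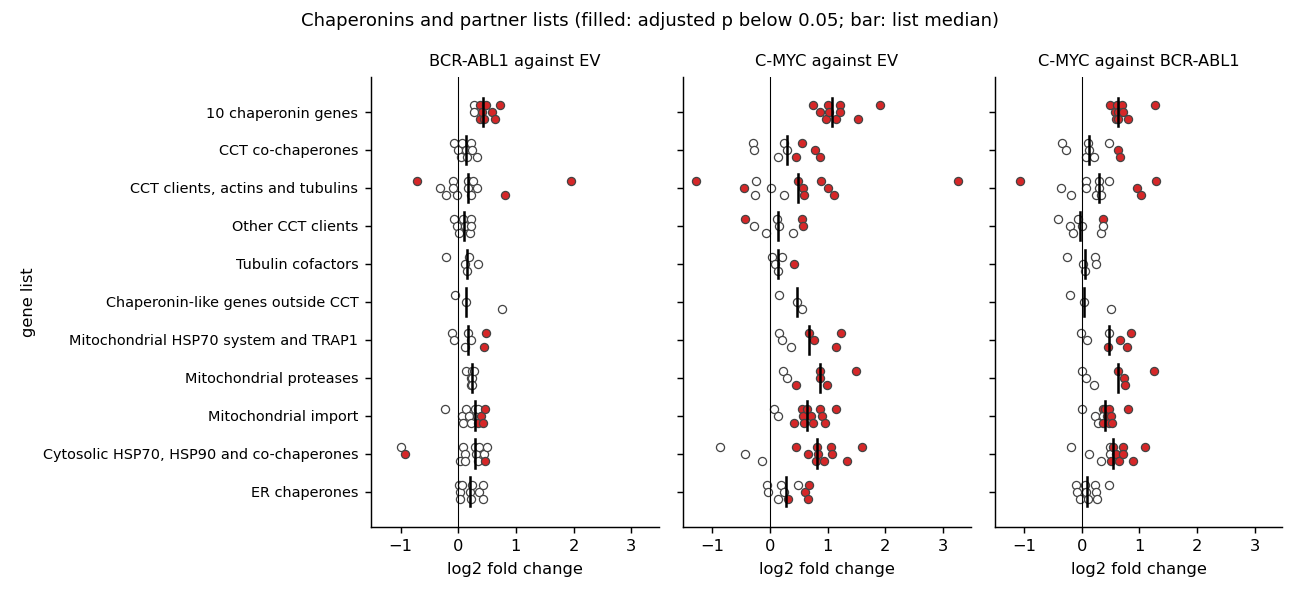
Log2 fold change (x axis) of each gene of the 10 chaperonins and of the 10 partner lists (y axis) in the 3 comparisons; filled points have an edgeR adjusted p below 0.05 and bars are list medians. In C-MYC against BCR-ABL1 the median is 0.63 for the chaperonins, 0.12 for the CCT co-chaperones, 0.41 for mitochondrial import and 0.08 for chaperones of the endoplasmic reticulum.

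Among the members, the pattern of Cct4 was nearest to the mean CCT pattern. Likeness was measured as the root mean square difference of centred log2 CPM over the 6 libraries, which share their depth and scaling, and was 0.00892 for Cct4 and 0.0197 for Cct7. Tcp1, at 0.0433, Cct8, at 0.0544, and Cct5, at 0.0703, came after these, and Cct2, at 0.118, was the farthest of the CCT genes. Among all genes tested, Tcp1 ranked 13, Cct8 31, Cct5 67 and Cct2 308, so genes outside the members lay nearer to the mean than these subunits. Hspe1, at 0.223, and Hspd1, at 0.396, had larger differences than any subunit, but each subunit is part of the mean it was compared with and these 2 genes are not.

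The 5 genes outside the members with the smallest difference were Stoml2, Eif2s1, Taf1d, Eif3b and Utp18, at 0.0282 to 0.0384. Stoml2 encodes a stomatin-like protein of the mitochondrial inner membrane, Eif2s1 and Eif3b are subunits of translation initiation factors, Taf1d is a subunit of the RNA polymerase I selectivity factor, and Utp18 acts in ribosomal RNA processing. Eif2s1, for example, was at 170 and 192 CPM in EV, 230 and 255 with BCR-ABL1 and at 351 and 366 with C-MYC. These values describe a shared pattern over 6 libraries only.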

How the data were processed

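Reads of poly(A) RNA were aligned by the authors with STAR (v2.5.0) against GRCm38/mm10 and UCSC known genes, and they deposited counts as whole numbers for each gene symbol without normalization. The program that counted reads, its strand setting and its handling of reads with several alignments are not given in the sources used here. The deposited FPKM of each gene came from StringTie (v1.3.0), run by the authors. ChIP-seq samples were not analysed here.

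Counts were analysed with edgeR 4.0.16 in R 4.3.3, with all 6 libraries in 1 model without covariates. Genes passed filterByExpr, libraries were scaled by TMM, and the quasi-likelihood test was adjusted by Benjamini-Hochberg over 12786 genes, with calls at an adjusted p below 0.05. The standard error is the absolute log2 fold change over the square root of F. DESeq2 1.42.0 and limma 3.58.1 (log2 FPKM with a pseudocount of 1 or 0.1) served as alternatives, beside RLE and upper quartile scaling, no filter, the 4 libraries compared, a term for the replicate number, and leaving out each library. CPM are TMM-scaled. The edgeR script was tested on simulated data. Positions are from GENCODE M21 and transcript lengths and promoters from RefSeq, GRCm38.p6. With 20687092 to 24095955 counts per library, depth limits the members little, and the spread between replicates (common biological coefficient of variation 0.151) sets the precision. Replicates differed beyond sampling noise in each condition. Tables held 0 columns of other samples.

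The members and lists were chosen with earlier results of these data known. Named beside the members are list genes called in at least 1 comparison, up to 5 a list, neighbours by position, the 5 genes of nearest pattern, Myc and markers. Exceptions, named after their values were seen, are Pfdn5, Tubb5, Timm17b, Pam16, Yme1l1, Spg7, Dnajb1, Hspa1a, Hspa5 and the chaperonin-like genes.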

Additional observations from a re-analysis of the deposited data

How the results depend on the processing

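All 10 members were higher in C-MYC than in EV at an adjusted p below 0.05 in all 15 alternatives, and the direction of each member was the same in each comparison and alternative. Between BCR-ABL1 and EV, 8 members were called, and 3 with upper quartile scaling, 1 in each of the 3 limma fits on FPKM, and 5 in the fit of the 4 libraries compared. Leaving out 1 library gave 0 to 8. Without a library, the lone library of a condition is assumed to vary like the others. Between C-MYC and BCR-ABL1, 10 were called, 7 by limma over genes with FPKM above 0, and 1 to 10 without 1 library. Partner genes called between BCR-ABL1 and EV numbered 11, and 7 with limma on log2(FPKM + 1), 6 with limma over genes with FPKM above 0, 5 in the fit of 4 libraries and 2 to 17 without 1 library. Between C-MYC and EV, 51 were called, and 34 to 54 without 1 library. Between C-MYC and BCR-ABL1, 32 were called, and 19 and 11 by limma on log2(FPKM + 1) with and without the filter, and 2 to 42 without 1 library. Over all genes, 650 rose and 1530 fell between BCR-ABL1 and EV, and 340 and 1347 did so by limma on log2(FPKM + 1). The cause was not tested.

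Samples that share a replicate number correlated in their deviations (0.334, 0.285 and 0.277), but the labels do not say that a number marks a shared culture or day. With the replicate block, 10 members were called in each comparison, and 20 partner genes between BCR-ABL1 and EV.

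The level of Hspd1 and Hspe1 relative to CCT depended on the unit. By FPKM, log2 Hspd1 over the CCT mean was 1.53, 1.77 and 2.44 for EV, BCR-ABL1 and C-MYC. Per kilobase of annotated exon it was 0.72, 0.96 and 1.62, and per kilobase of RefSeq transcript it was -0.0668, 0.18 and 0.83. For Hspe1 it was -4.50, -4.19 and -4.00 by FPKM, -0.29, 0.0251 and 0.21 per kilobase of exon, and -0.25, 0.0619 and 0.24 per kilobase of RefSeq transcript. Its direction in BCR-ABL1 and C-MYC, and that of Hspd1 in EV by RefSeq length, thus turned. Annotated exons include retained introns.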
